A study of Mus musculus with 12 samples.

Results

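Smooth muscle contractile genes were examined in the proximal colon of mice with and without a deletion of EPR in the gut epithelium. The set held 39 genes of a count table of 55376 genes, chosen by name as the contractile filaments of smooth muscle, their anchoring and adhesion proteins, the enzymes and channels that control contraction, the transcription factors Srf and Myocd, and the secreted protein Smoc1. Of these, 38 were among the 15952 genes with enough reads to be tested, and Actc1, the cardiac actin, was not.

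EPR is a long noncoding RNA of epithelial cells that was listed in the table as Smim31. The 6 control mice (EPR fl/fl) carried EPR alleles flanked by loxP sites and no Cre, and the 6 EPR cKO mice carried the same alleles with the CDX2P-NLS Cre transgene, in which a human CDX2 promoter drives Cre in epithelial cells of the large intestine, the cecum included, and of the last part of the ileum. The mice were untreated and 12 weeks old, and 1 RNA-Seq library was made per animal from whole proximal colon. Mice with Cre alone were not analysed here, so that an effect of the transgene cannot be told apart from an effect of losing EPR. The promoter that drives Cre is active in epithelium, and the genes described below are mainly those of the muscle coat. Values are counts-per-million (CPM) after scaling of library sizes, and n = 6 libraries per group unless stated.

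Smooth muscle contracts when calcium binds calmodulin, which activates myosin light chain kinase. The kinase phosphorylates the regulatory light chain, myosin then pulls on actin, and a phosphatase under the control of cGMP and other signals reverses the step. In the colon the muscle coat and the thin muscle layer under the mucosa carry this machinery and move the gut contents. Serum response factor (Srf), with its cofactor myocardin (Myocd), switches on many of these genes through a DNA element called the CArG box.

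The library EPR cKO 1 stood apart from the other EPR cKO libraries in the genes of this set. The summed level of the 39 genes was 20240 CPM in EPR cKO 1, 3349 to 6824 CPM in EPR cKO 2 to 6 and 7397 to 11720 CPM in EPR fl/fl. The genes took 1.87% of all counts in EPR cKO 1, 0.323% to 0.683% in EPR cKO 2 to 6 and 0.753% to 1.23% in EPR fl/fl. EPR cKO 1 was the highest of the 12 libraries for 38 of the 38 tested members, whereas it was the highest for 20.6% of all tested genes. Counts of members called are therefore given with and without this library. Fold changes of some single genes are given only without it. With all 12 libraries no member passed in edgeR's quasi-likelihood test (adjusted p from 0.2 to 0.921). EPR cKO 1 was left out because of these same genes. The p-values without it therefore describe the other 11 libraries and are no independent evidence. EPR itself did not set the library apart from its group, since EPR had 0 to 10 counts in each of the 6 EPR cKO libraries and 297 to 1474 in EPR fl/fl (log2 fold change −8.09, SE 0.47, adjusted p = 1.62e-06). Total counts ran from 13093904 to 33211041 per library.

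Levels differed widely between the members of this set, which was chosen by name, so that their ranking does not identify the source cells. In EPR fl/fl, levels per kilobase of exon were highest for Actg2, the enteric γ-actin, at 348.6 ± 67.8 CPM per kb (SD), and for Acta2, the vascular α-actin, at 318 ± 84.6 CPM per kb. Myl9, Myl6 and Tagln followed at 314.2 ± 74.9, 296.4 ± 40 and 286.6 ± 65.3 CPM per kb, within the SD of the genes above them. Myh11, the smooth muscle myosin heavy chain, reached 201.4 ± 41.8 CPM per kb. The transcription factors and channels were low by comparison. Srf was at 12.8 ± 2.58 CPM per kb, Cacna1h at 5.25 ± 0.869, Kcnma1 at 4.27 ± 0.606, Myocd at 1.85 ± 0.356 and Ryr2 at 0.997 ± 0.294. Actc1 was at 0.341 ± 0.148 CPM per kb, from 3 to 25 counts per library. Of 14 markers of striated muscle only 4 passed the filter on low counts, and the cardiac and skeletal myosin Myh7 had at most 17 counts in any library.

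With all 12 libraries, no contractile gene passed the test for a difference between EPR cKO and EPR fl/fl. At an adjusted p under 0.05 in edgeR's quasi-likelihood test, 0 of 38 members were lower and 0 were higher, while 1.57% of all tested genes were lower and 0.884% were higher. At an unadjusted p under 0.05, 1 member was lower, beside 7.12% of all genes, and DESeq2, which gave no adjusted p for 3 members, and limma-voom also called 0 members. Limma-voom with quality weights, which count a deviating library less, called 31 of the 38 lower. The fitted log2 fold change was negative for 34 of the 38 members, with a median of −0.39 against 0.02 over all tested genes. Under limma-voom the median was −0.79, with a replicate block −0.81 and with quality weights −0.99. Members ranged from −0.74 for Cacna1h to 0.20 for Srf, with adjusted p from 0.2 to 0.921. For 0 members did all 6 EPR cKO libraries lie below all 6 EPR fl/fl libraries, which held for 1.47% of all genes, and for 0 members did they lie above, which held for 1% of all genes.

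The EPR cKO libraries were spread far more widely than the controls in these genes. Over members, the SD of log2 CPM had a median of 1.06 among the 6 EPR cKO libraries and 0.302 among the 6 controls, and it was larger in EPR cKO for 36 of 38 members. Over all tested genes the median SDs were 0.252 and 0.218, and 61.5% of genes had the larger SD in EPR cKO. The SDs over all genes used log2 CPM with a prior count of 2, which lowers the spread of weakly expressed genes. Those of the members used no prior count. The highest library exceeded the lowest by a median of 7.04-fold over all 12 libraries and by 1.72-fold within EPR fl/fl. EPR cKO 1 was above the EPR fl/fl mean by a median of 2.12-fold (range 1.29 to 3.79), and the mean of EPR cKO 2 to 6 was at a median of 46% of the EPR fl/fl mean (range 37.1% to 111%). The 6 EPR cKO libraries thus lay on both sides of the controls. The lowest library was EPR cKO 5 for 22 members and EPR cKO 6 for 13.

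**Figure D1:**
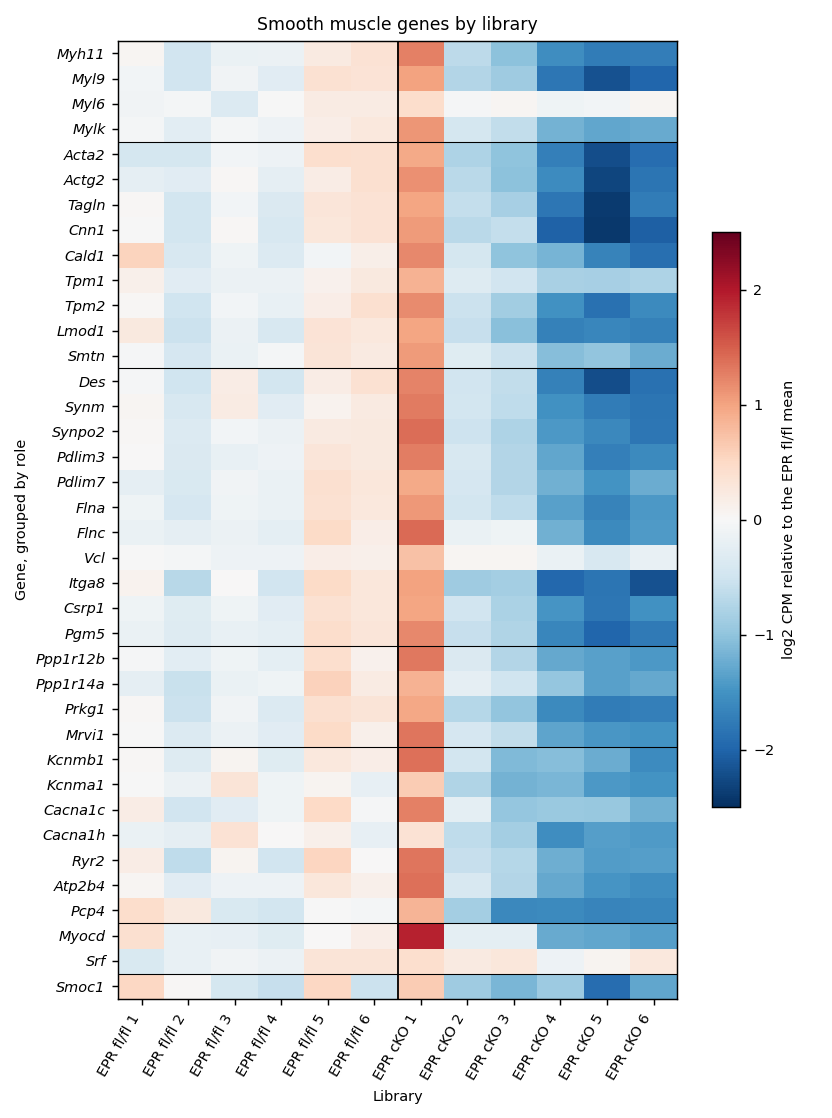
Heat map of the 38 tested smooth muscle genes (rows, grouped by role) in the 12 libraries (columns), coloured by log2 CPM relative to the EPR fl/fl mean of the gene. EPR cKO 1 is the highest library in every row, EPR cKO 4 to 6 are the lowest columns, and Myl6, Vcl and Srf show the smallest differences from the controls.

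Without EPR cKO 1, 34 of the 38 members were lower in EPR cKO and 0 were higher. Among all 15836 genes tested in that fit, 14.4% were lower and 7.44% were higher. The median log2 fold change was −1.14 over members and −0.00066 over all genes. For 28 members the 5 remaining EPR cKO libraries lay below all 6 controls, as they did for 7.22% of all genes, and for 0 members they lay above, as for 4.22% of all genes. The 4 members that did not pass were Myl6, Vcl, Srf and Flnc. In whole tissue, fewer muscle cells and less RNA per muscle cell cannot be told apart.

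**Figure D2:**
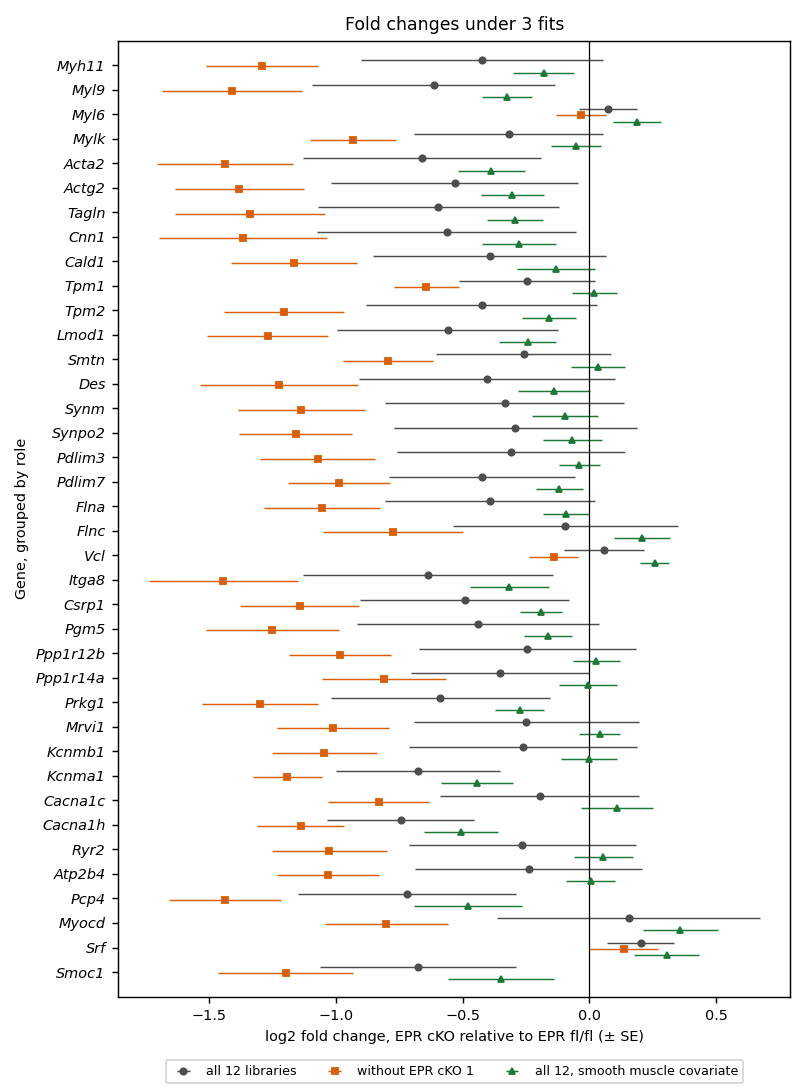
Log2 fold change of EPR cKO relative to EPR fl/fl (x axis, bars ± SE) for the 38 tested smooth muscle genes (y axis) in 3 fits. Circles are all 12 libraries, squares leave out EPR cKO 1, and triangles use all 12 libraries with the level of other smooth muscle genes as a covariate. The squares lie near −1.14 at the median and the triangles near −0.11, and Myl6, Vcl and Srf lie near 0 in the first and second fits.

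Myosin and its kinase differed widely between EPR cKO 1 and the other EPR cKO libraries. Myh11 ran from 951.4 CPM through a median of 1293 to 1715 CPM in EPR fl/fl, and from 396.5 CPM through a median of 556.6 to 3202 CPM in EPR cKO, where 3202 CPM was EPR cKO 1 and the next library was at 844.7 CPM. The other 5 EPR cKO libraries were thus all below the controls. With all libraries the log2 fold change of Myh11 was −0.42 (SE 0.48, adjusted p = 0.649), and without EPR cKO 1 it was −1.29 (SE 0.22, adjusted p = 0.00288). Mylk, the kinase that switches myosin on, was at 467.5 to 677.2 CPM (median 544.7) in EPR fl/fl, at 1217 CPM in EPR cKO 1 and at 228.8 to 416 CPM in EPR cKO 2 to 6. It fell by 0.93 on the log2 scale without EPR cKO 1 (SE 0.17, adjusted p = 0.00389), against −0.32 (SE 0.37, adjusted p = 0.661) with it.

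The light chains of myosin behaved differently from each other. Myl9, the regulatory light chain that the kinase phosphorylates in smooth muscle, was at 254 to 462 CPM (median 334.2) in EPR fl/fl, at 714 CPM in EPR cKO 1 and at 78.5 to 214.3 CPM in EPR cKO 2 to 6. Myl6, the essential light chain, is also part of nonmuscle myosin and is made in most cell types. Its level was 396.9 to 576.8 CPM (median 492.1) in EPR fl/fl, 681 CPM in EPR cKO 1 and 466.6 to 521.4 CPM in EPR cKO 2 to 6, so that those 5 libraries lay inside the control range. Myl9 fell by 1.41 without EPR cKO 1 (SE 0.28, adjusted p = 0.00527), against −0.61 (SE 0.48, adjusted p = 0.509) with that library. The log2 fold change of Myl6 was −0.03 (SE 0.10, adjusted p = 0.843) without EPR cKO 1 and 0.07 (SE 0.11, adjusted p = 0.74) with it. Of the 50-base stretches of Myl6 transcripts, 8.38% were shared with other genes, mainly with Gm5526, so that its count is less certain than that of Myl9, which shared 0%.

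**Figure D3:**
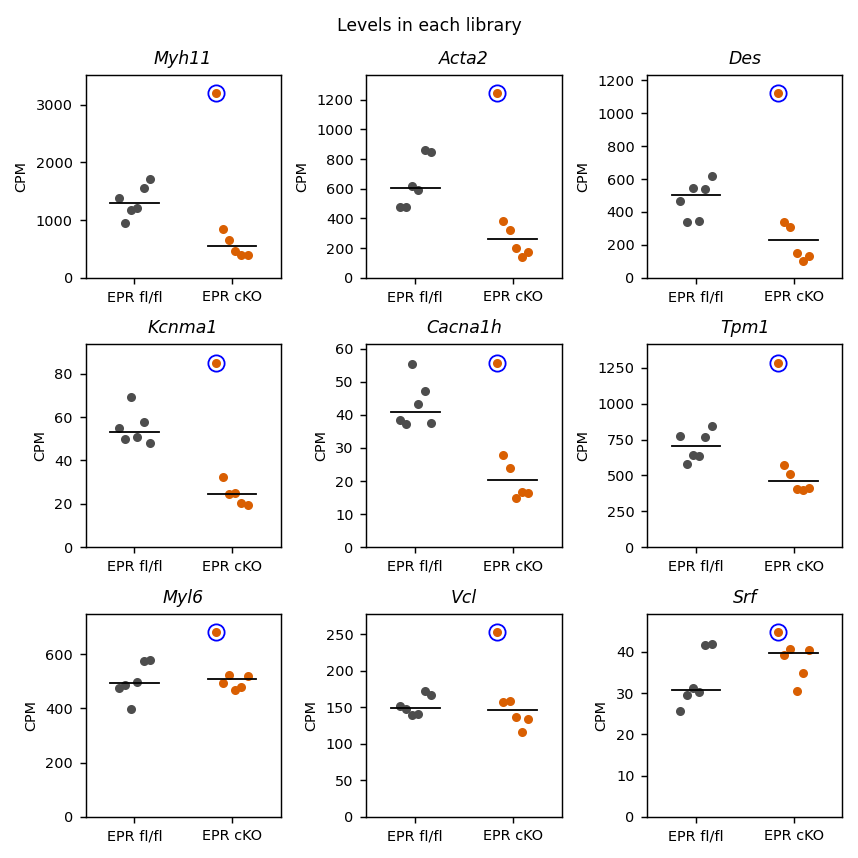
CPM of 9 smooth muscle genes in each of the 6 EPR fl/fl (grey) and 6 EPR cKO (orange) libraries on linear axes from 0, with the group median as a line and EPR cKO 1 circled in blue. In Myh11, Acta2, Kcnma1, Cacna1h and Tpm1 the other 5 EPR cKO libraries lie below every control, in Des the highest of them overlaps, in Vcl 2 of the 5 lie in the control range, and in Myl6 and Srf all 5 do.

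The thin filament, on which myosin pulls, gave the same pattern in both smooth muscle actins. Acta2 was at 477.6, 606.5 and 864 CPM (lowest, median, highest) in EPR fl/fl, at 1245 CPM in EPR cKO 1 and at 138.4 to 379.7 CPM in EPR cKO 2 to 6. Actg2 was at 392.2, 447.1 and 624.3 CPM in EPR fl/fl, at 1052 CPM in EPR cKO 1 and at 96.7 to 300.2 CPM in EPR cKO 2 to 6. Neither gene overlapped between controls and EPR cKO 2 to 6. Without EPR cKO 1, Acta2 fell by 1.44 (SE 0.27, adjusted p = 0.00441) and Actg2 by 1.38 (SE 0.25, adjusted p = 0.00412), and with it the values were −0.66 (SE 0.47, adjusted p = 0.47) and −0.53 (SE 0.49, adjusted p = 0.576). Actins are close in sequence, but over 50-base stretches Actg2 shared 0% and Acta2 0.326% with any other gene.

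The regulators bound along the filament moved with the actins. Without EPR cKO 1, 9 of the 9 tested thin filament genes were lower (median log2 fold change −1.27), beside 14.4% of all genes. With it 0 of 9 passed (median −0.53). Cnn1, the actin-binding protein calponin, was at 208.6 to 370.1 CPM in EPR fl/fl, at 603 CPM in EPR cKO 1 and at 54.4 to 190.6 CPM in EPR cKO 2 to 6. Tagln (transgelin) was at 334.2 to 590.5 CPM in EPR fl/fl, at 900 CPM in EPR cKO 1 and at 86.6 to 304.3 CPM in EPR cKO 2 to 6. Antisense genes covered 60.9% of the exon bases of Tagln, and whether counting used the strand is not stated, so that reads of both cannot be told apart with certainty. Lmod1, the leiomodin that nucleates actin filaments, fell by 1.27 (SE 0.24, adjusted p = 0.00447), Cald1, caldesmon, by 1.16 (SE 0.25, adjusted p = 0.00779), and Smtn, smoothelin, by 0.79 (SE 0.18, adjusted p = 0.00968). Tropomyosins differed in size of change. Tpm2 fell by 1.20 (SE 0.24, adjusted p = 0.00537) and Tpm1, which is also made in nonmuscle cells, by 0.64 (SE 0.13, adjusted p = 0.00598).

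Dense bodies and adhesion plaques anchor the thin filaments in the cell and at its membrane. Among the 11 genes of this role, 9 were lower without EPR cKO 1 (median −1.14), beside 14.4% of all genes. With all libraries 0 were lower (median −0.39). Des, which encodes the muscle intermediate filament desmin, was at 338.1, 502.2 and 620.2 CPM (lowest, median, highest) in EPR fl/fl, at 1123 CPM in EPR cKO 1 and at 101.6 to 339.5 CPM in EPR cKO 2 to 6, where only the highest value reached into the control range. Synm, Synpo2, Pdlim3, Pdlim7, Csrp1, Pgm5, Flna and Itga8, which encode a further intermediate filament protein, actin-linking and cytoskeletal proteins and an integrin chain, fell by 0.99 to 1.44 in the same fit. Flnc, a filamin, was at 70.8 to 117.9 CPM in EPR fl/fl, at 224.3 CPM in EPR cKO 1 and at 28 to 78.2 CPM in EPR cKO 2 to 6, and did not pass (log2 fold change −0.78, SE 0.28, adjusted p = 0.0609).

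Vinculin differed little between the controls and EPR cKO 2 to 6. Vcl, which links actin to integrin and cadherin adhesions in many cell types, was at 139.2 to 172.6 CPM (median 149.1) in EPR fl/fl, at 252.9 CPM in EPR cKO 1 and at 115.5 to 158.5 CPM in EPR cKO 2 to 6, of which 2 lay in the control range and 3 below it. Its log2 fold change was 0.06 (SE 0.16, adjusted p = 0.859) with all libraries and −0.14 (SE 0.10, adjusted p = 0.311) without EPR cKO 1. The antisense gene Ap3m1 covered 39.7% of Vcl exon bases.

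Relaxation of the muscle runs through the myosin phosphatase and cGMP-dependent kinase. All 4 members of this role were lower without EPR cKO 1 (median −0.996), beside 14.4% of all genes, and 0 passed with it (median −0.30). Prkg1, the cGMP-dependent kinase, was at 14.7 to 28 CPM in EPR fl/fl, at 41.5 CPM in EPR cKO 1 and at 6.36 to 13 CPM in EPR cKO 2 to 6, and fell by 1.30 without EPR cKO 1 (SE 0.23, adjusted p = 0.00334). Its substrate at the calcium store, Mrvi1, fell by 1.01 (SE 0.22, adjusted p = 0.0086). Ppp1r12b, a myosin-targeting subunit of the phosphatase, fell by 0.98 (SE 0.20, adjusted p = 0.00653) and Ppp1r14a, an inhibitor of the phosphatase, by 0.81 (SE 0.24, adjusted p = 0.032). For Ppp1r12b all of EPR cKO 2 to 6 lay below the controls, and for Ppp1r14a EPR cKO 2 and 3, at 12 and 9.87 CPM, lay within the control range of 9.46 to 20.9 CPM.

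Channels and calcium handling held the members with the smallest p-values. Kcnma1, the pore of the large-conductance calcium-activated potassium channel that damps contraction, was at 47.9, 53 and 69.3 CPM (lowest, median, highest) in EPR fl/fl, at 85.2 CPM in EPR cKO 1 and at 19.5 to 32.5 CPM in EPR cKO 2 to 6. Its log2 fold change was −0.68 (SE 0.32, adjusted p = 0.289) with all libraries and −1.19 (SE 0.14, adjusted p = 0.000254) without EPR cKO 1. Cacna1h, a T-type calcium channel, was at 37.2, 40.9 and 55.5 CPM in EPR fl/fl, at 55.8 CPM in EPR cKO 1 and at 14.8 to 27.8 CPM in EPR cKO 2 to 6. EPR cKO 1 was here only 1.29-fold above the control mean, the smallest excess among the members. Cacna1h had the lowest p with all 12 libraries (log2 fold change −0.74, SE 0.29, adjusted p = 0.2) and fell by 1.14 without EPR cKO 1 (SE 0.17, adjusted p = 0.00156).

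The remaining members of this role were lower to a similar degree without EPR cKO 1. Pcp4, a small protein that binds calmodulin, was at 4.13 to 7.69 CPM in EPR fl/fl, at 10.1 CPM in EPR cKO 1 and at 1.81 to 3.14 CPM in EPR cKO 2 to 6, and fell by 1.44 without EPR cKO 1 (SE 0.22, adjusted p = 0.00177). A same-strand gene, Gm49948, covered 37.9% of its exon bases, so that its count is uncertain. Cacna1c, the L-type calcium channel through which most calcium enters, fell by 0.83 (SE 0.20, adjusted p = 0.0126). Kcnmb1, the accessory subunit of the Kcnma1 channel, fell by 1.05 (SE 0.21, adjusted p = 0.00569), Ryr2, a calcium release channel, by 1.03 (SE 0.23, adjusted p = 0.00929) and Atp2b4, a calcium pump of the cell membrane, by 1.03 (SE 0.20, adjusted p = 0.00516). All 7 genes of this role were lower in that fit, beside 14.4% of all genes, and 0 of 7 passed with all libraries. Smoc1, the secreted member, was at 5.46 to 11.6 CPM in EPR fl/fl, at 12.6 CPM in EPR cKO 1 and at 2.15 to 4.37 CPM in EPR cKO 2 to 6 (log2 fold change −1.20, SE 0.27, adjusted p = 0.0094 without EPR cKO 1). With all libraries its value was −0.68 (SE 0.39, adjusted p = 0.368).

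The transcription factors that drive the contractile genes had edgeR fold changes of the same sign with all 12 libraries, and neither passed. They differed in sign when EPR cKO 1 was left out. Srf was at 25.7, 30.9 and 41.9 CPM (lowest, median, highest) in EPR fl/fl, at 44.8 CPM in EPR cKO 1 and at 30.5 to 40.7 CPM in EPR cKO 2 to 6. The groups overlapped with or without EPR cKO 1 (log2 fold change 0.20, SE 0.13, adjusted p = 0.425 with it, and 0.14, SE 0.13, adjusted p = 0.501 without it). Myocd was at 7.64, 8.93 and 12.5 CPM in EPR fl/fl, at 36 CPM in EPR cKO 1, at 8.01 and 7.97 CPM in EPR cKO 2 and 3, and at 3.67 to 3.98 CPM in EPR cKO 4 to 6. EPR cKO 1 was 3.79-fold above the control mean in Myocd, the largest excess among the members. The log2 fold change of Myocd turned from 0.15 (SE 0.52, adjusted p = 0.888) with that library to −0.80 (SE 0.24, adjusted p = 0.0331) without it.

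Because Srf acts through CArG boxes, the promoters of the members were searched for them. RefSeq promoter sequence of GRCm38.p6, from 250 bases before to 50 bases after each annotated start, was at hand for 33 of the 39 members. An exact CArG box, searched on both strands, was found for 5 of these 33 (15.2%), beside 488 of 27025 genes (1.81%) in the whole promoter table. The 5 genes were Myl9, Myl6, Vcl, Srf and Actc1. The windows below show each exact box with 10 bases on either side, read 5′ to 3′ on the strand of the gene, with the box in capitals. They are shown because 3 of the 5 genes, Myl6, Vcl and Srf, were among the 4 members that did not pass without EPR cKO 1, an overlap that was not tested.
Myl9, chr2:156775293-156775322, plus strand: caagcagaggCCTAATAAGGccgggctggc
Myl6, chr10:128493040-128493069, minus strand: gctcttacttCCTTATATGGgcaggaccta
Vcl, chr14:20929161-20929190, plus strand: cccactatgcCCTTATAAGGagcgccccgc
Srf, chr17:46556225-46556254, minus strand: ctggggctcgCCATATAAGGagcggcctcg
Srf, chr17:46556205-46556234, minus strand: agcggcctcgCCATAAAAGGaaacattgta
Actc1, chr2:114052903-114052932, minus strand: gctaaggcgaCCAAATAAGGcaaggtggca

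The centres of the boxes lay 156 bases before the start in Myl9, 45 in Myl6, 222 in Vcl, 77 and 57 in Srf and 42 in Actc1. A gene with several promoter entries counted if any of them held a box. Myl6 had 2 entries with 1 box, so that its distance is from the start of that entry. That box lay inside the span of the gene, 128490860 to 128493875. When 1 of the 6 central bases was allowed to be C or G, 11 of the 33 members (33.3%) held a box, beside 11.3% of all genes in the table. Acta2 was then among them, with the window below, centred 79 bases before its start and shown as an example from a smooth muscle actin, chosen after its values were seen.
Acta2, chr19:34255438-34255467, minus strand: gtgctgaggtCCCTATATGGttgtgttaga
A match describes the letters only, and binding was not measured. A further such match of Acta2 was centred 29 bases before its start, and Cacna1c, Flnc, Pcp4, Pdlim3 and Synm also held at least 1. The other members with sequence had no match of either kind in this window, and Myh11, Actg2, Tagln, Cacna1h, Myocd and Smoc1 were not searched.

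To see how closely the members moved together, each was set against the mean log2 CPM of 7 smooth muscle markers (Acta2, Actg2, Myh11, Des, Cnn1, Tagln and Smtn) in the same library. For the 31 other tested members, the SD over the 12 libraries had a median of 0.258 for this relative level and 0.827 for the level itself, and it was smaller for 28 of 31. The exceptions were Myl6, Vcl and Srf. The tightest were Myl9, Pgm5 and Tpm2, with SDs of 0.0888, 0.089 and 0.0952 against 1, 0.946 and 0.896 for their own levels. These genes held a nearly fixed proportion to the markers across libraries whose muscle signal differed widely. The relative level of Myl6 was −0.406 in EPR cKO 1 and rose in order of falling marker level to 0.821 in EPR cKO 2, 1.11 in EPR cKO 3, 1.78 in EPR cKO 4, 2.07 in EPR cKO 6 and 2.23 in EPR cKO 5. Points of a library share its marker mean, so that these relative levels are given as a description.

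Ratios between paired genes within a library were compared by two-sided exact permutation tests over 924 assignments, adjusted over the 6 ratios. The log2 ratio of Actg2 to Acta2 averaged −0.42 ± 0.17 in the controls, against an EPR cKO value of −0.37 ± 0.10 (SD, n = 6 libraries each, exact p = 0.543, adjusted p = 0.543). The balance of the enteric and vascular actins thus differed by less than its spread. The ratio of Tpm2 to Tpm1 was −1.25 ± 0.13 and −1.71 ± 0.49 (exact p = 0.0563, adjusted p = 0.117) and that of Cnn1 to Myl6 was −0.82 ± 0.32 and −1.97 ± 1.14 (exact p = 0.0584, adjusted p = 0.117). Both were lower than the control mean in 5 of 6 EPR cKO libraries, the exception being EPR cKO 1. Without that library, left out because of genes of this same set, the differences were −0.62 and −1.51, each with an exact adjusted p of 0.013. That test ran over fewer assignments than the 924 of all libraries. In the ratio of Tpm2 to Tpm1 the groups still overlapped, with EPR cKO 2 at −1.453 and EPR fl/fl 2 at −1.462. Tpm1 and Myl6 are also made in nonmuscle cells. Both ratios can therefore follow the share of muscle in a sample, which cannot be told apart here from a change within muscle cells.

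The remaining pairs gave no difference past the threshold. Flnc relative to Flna was −4.02 ± 0.12 in controls and −3.78 ± 0.19 in EPR cKO, above the control mean in 6 of 6 EPR cKO libraries (exact p = 0.0281, adjusted p = 0.117). Kcnmb1 to Kcnma1, the subunits of 1 channel, was −3.69 ± 0.25 and −3.46 ± 0.29 (exact p = 0.186, adjusted p = 0.279). Ppp1r14a to Ppp1r12b was −3.46 ± 0.19 and −3.38 ± 0.27 (exact p = 0.532, adjusted p = 0.543).

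**Figure D4:**
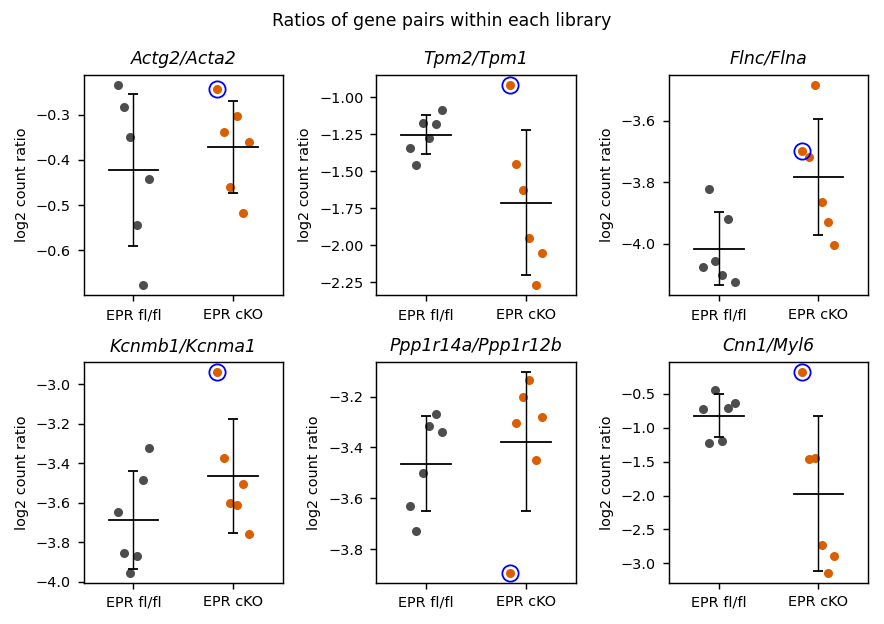
Log2 count ratio of 6 gene pairs in each EPR fl/fl (grey) and EPR cKO (orange) library, with mean and SD bars and EPR cKO 1 circled in blue. The Actg2/Acta2 ratio overlaps between groups, while in Tpm2/Tpm1 and Cnn1/Myl6 EPR cKO 1 lies above the controls' mean and the other 5 lie below it.

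The members were also tested with the mean level of other smooth muscle genes, none of them members, as a covariate in the model. Differences that run in parallel with those genes are then taken up by the covariate. Not all of those other genes followed the muscle signal, and 18 of the 34 tested were lower without EPR cKO 1. Tpm4, chosen after its values were seen, was at 105.7 CPM in EPR cKO 1 and at 118.3 to 146 CPM in EPR cKO 2 to 6. With all 12 libraries the median log2 fold change of the 38 members was −0.11, 0 were lower and 1 was higher, beside 2.39% and 0.733% of all genes. The member called higher relative to the covariate was Vcl (log2 fold change 0.26, SE 0.06, adjusted p = 0.0312). Its value without the covariate was 0.06 (SE 0.16, adjusted p = 0.859), so that its own level did not differ past the threshold. The lowest values that did not pass were those of Cacna1h (−0.51, SE 0.15, adjusted p = 0.0822) and Pcp4 (−0.48, SE 0.22, adjusted p = 0.284). Without EPR cKO 1 the same model gave a median of −0.20 and called 0 members, beside 0.53% of all genes lower and 0.12% higher. Vcl had a similar value in that fit, with a larger SE, and did not pass (0.23, SE 0.10, adjusted p = 0.429).

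Other genes of smooth muscle that were not in the set gave the counts below, read against 14.4% of all genes lower and 7.44% higher without EPR cKO 1. Of 34 tested genes that included the sarcoglycan and dystrophin complex, caveolae and small heat shock proteins, 0 passed with all libraries (28 negative, median −0.25), and 18 were lower and 0 higher without EPR cKO 1 (median −0.82). Of 32 genes of muscle receptors and of RhoA, nitric oxide and calcium signalling, 0 passed with all libraries (median −0.15), and 16 were lower and 0 higher without EPR cKO 1 (median −0.39). Among them, Chrm2 and Chrm3, the muscarinic receptors through which acetylcholine contracts the gut, fell by 1.63 (adjusted p = 0.00432) and 1.45 (adjusted p = 0.0109) in that fit, and Itpr1, the calcium release channel of the store, by 0.94 (adjusted p = 9.9e-05). Rhoa and Rock1, a small GTPase and its kinase that are made in most cells, had values of 0.13 (adjusted p = 0.307) and −0.05 (adjusted p = 0.673). Of 14 tested Srf cofactors and smooth muscle regulators, 0 passed with all libraries and 3 of 14 were lower without EPR cKO 1, a share near that of all genes. Mrtfa and Mrtfb, the Srf cofactors present in many cell types, had values of 0.02 (adjusted p = 0.935) and 0.01 (adjusted p = 0.956). Chrm2, Chrm3, Itpr1, Rhoa, Rock1, Mrtfa and Mrtfb were chosen after their values were seen.

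Several lists of markers of other cells of the gut wall were also highest in EPR cKO 1. The counts that follow, without EPR cKO 1, stand beside 14.4% of all genes lower in that fit. For 12 markers of enteric neurons and glia the summed level was 68 to 123.8 CPM in EPR fl/fl, 251.6 CPM in EPR cKO 1 and 28.9 to 72.7 CPM in EPR cKO 2 to 6, and 7 of 12 were lower without EPR cKO 1. For 8 markers of fibroblasts the sum was 991.5 to 1758 CPM, 3112 CPM and 467.8 to 1453 CPM, and 4 of 8 were lower. For 8 markers of endothelium it was 63 to 77.2 CPM, 110.8 CPM and 28.8 to 65.9 CPM, and 5 of 8 were lower. Pericyte and vascular muscle markers were at 372.2 to 697.3 CPM, 1080 CPM and 126.5 to 314.1 CPM, with 4 of 6 tested genes lower. Adipocyte markers were at 434.7 to 1421 CPM, 974.1 CPM and 54.6 to 333.6 CPM, with 7 of 7 lower, and mesothelium markers at 4.41 to 77.9 CPM, 34.5 CPM and 1.79 to 34.6 CPM, with 0 of 4 lower. With all 12 libraries 0 genes of these 6 lists passed in either direction.

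Epithelial markers went the other way in EPR cKO 2 to 6. The 12 markers summed to 8174 to 12520 CPM in EPR fl/fl, 9948 CPM in EPR cKO 1 and 12280 to 15180 CPM in EPR cKO 2 to 6. With all libraries 0 of 12 passed. Without EPR cKO 1, 5 of 12 were higher and 0 lower, beside 7.44% of all genes higher and 14.4% lower in that fit. None of the defining markers of these 7 lists was at 0 in all libraries. The part that the composition of the tissue pieces had in the differences of the contractile genes was not tested directly, and it cannot be told apart from a change in muscle cells.

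**Figure D5:**
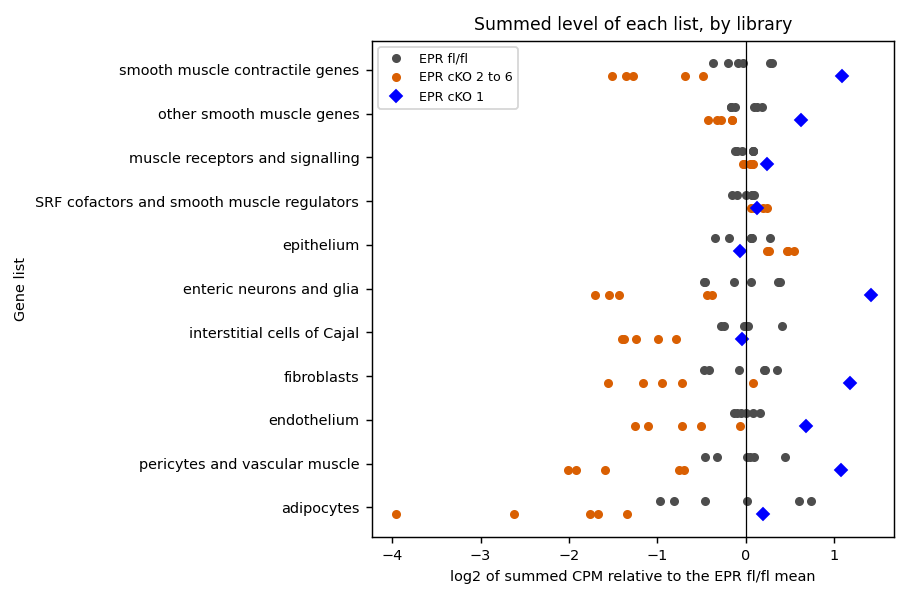
Summed CPM of gene lists in each library, on a log2 scale relative to the EPR fl/fl mean, for EPR fl/fl (grey), EPR cKO 2 to 6 (orange) and EPR cKO 1 (blue diamond). The lists of striated muscle and mesothelium are not shown. The smooth muscle genes, neurons, fibroblasts, endothelium and pericytes are highest in EPR cKO 1, and the epithelium is near or above the control level in EPR cKO 2 to 6.

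Kit and Acta1 passed with all 12 libraries among the genes of related lists. Over the 12 lists these were the only calls, 1 lower and 1 higher, beside 1.57% of all tested genes lower and 0.884% higher. Kit, the receptor that marks the interstitial cells of Cajal, the pacemaker cells lying between the muscle layers, was at 76.9 to 156.5 CPM in EPR fl/fl and at 75.8 CPM in EPR cKO 1 and 34.7 to 45.9 CPM in EPR cKO 2 to 6. All 6 EPR cKO libraries were below all 6 controls. The means were 107.3 ± 28.5 and 45.3 ± 15.4 CPM (log2 fold change −1.25, SE 0.21, adjusted p = 0.0074), and Kit stayed lower with the smooth muscle covariate (−1.10, SE 0.18, adjusted p = 0.00513), also without EPR cKO 1 (−1.49, SE 0.26, adjusted p = 0.0258). Interstitial cell markers as a list summed to 158.3 to 256.1 CPM in EPR fl/fl, 186.2 CPM in EPR cKO 1 and 72.8 to 111 CPM in EPR cKO 2 to 6. That sum was mostly Kit and Ano1. Etv1, a further marker, was at 9.23 to 14.9 CPM in EPR fl/fl and at 29.2 CPM in EPR cKO 1, above the controls, and Thbs4 was at 6.66 to 13.6 CPM and 7.16 CPM, within them. In EPR cKO 2 to 6 they were at 5.27 to 11.58 and 3.99 to 10.85 CPM. Ano1, Etv1 and Thbs4 did not pass with all libraries (log2 fold change −0.69, −0.16 and −0.23, adjusted p = 0.167, 0.84 and 0.616). Without EPR cKO 1, Ano1 and Etv1 passed (−0.98 and −0.74, adjusted p = 0.00285 and 0.0245) and Thbs4 did not (−0.22, adjusted p = 0.555). In whole tissue the cells behind the lower Kit level cannot be told.

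Acta1, the skeletal muscle actin, rose in contrast to the smooth muscle actins. It was at 3.84 to 7.05 CPM in EPR fl/fl, at 6.55 CPM in EPR cKO 1 and at 10.4 to 16.7 CPM in EPR cKO 2 to 6, so that only EPR cKO 1 overlapped with the controls. The means were 5.24 ± 1.30 and 11.9 ± 3.31 CPM (log2 fold change 1.18, SE 0.22, adjusted p = 0.0127), and with the smooth muscle covariate the value was 0.91 (SE 0.19, adjusted p = 0.0204). With that covariate and without EPR cKO 1 it was 1.17 (SE 0.30) and did not pass (adjusted p = 0.119). Of its 50-base stretches, 2.02% were shared with another gene, Gm47692.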

How the data were processed

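Total RNA of 12 whole proximal colon samples was depleted of ribosomal RNA and sequenced as stranded paired-end libraries. Per the methods of the study, reads were trimmed with Trimmomatic, aligned to mm10 with STAR 2.5.3a and counted with featureCounts against an Ensembl annotation. The deposited values were raw counts per gene from the authors, in 1 table of 55376 genes, of which 36694 had any count. Use of strand in counting and the handling of multimapped reads are not given in the sources used here. Exon lengths in the same deposited table gave CPM per kb. The table names its columns by sample, and 0 columns were left without a sample. The smallest chi-square per gene over pairs of libraries showed no repeated library.

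Genes with at least 1 CPM in at least 4 libraries were tested in R 4.3.3 with edgeR 4.0.16 (TMM scaling, quasi-likelihood F test, Benjamini-Hochberg adjustment over all tested genes, threshold 0.05). The biological coefficient of variation was 26.1%, and 20.6% without EPR cKO 1. SE is the log2 fold change divided by the square root of F. Log2 CPM used a prior count of 2 for values over all genes and for the covariate. No prior count was used for the SDs and relative levels of the members. Ratios were tested by exact permutation. The script was tested on simulated counts. Alternatives used limma 3.58.1 (voom, with and without quality weights), DESeq2 1.42.0, other scalings and filters, a replicate block, a covariate (mean log2 CPM of other smooth muscle genes) and fits without each library. Fits that combine another setting with leaving out EPR cKO 1 were added after seeing the data. The labels do not say that replicates share a litter, so that p-values measure the spread between these 12 animals. Same-numbered libraries did not deviate together in every pair, so that the main model has no block.

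The members and lists were chosen with earlier results of these data known. All members may be named, and of other lists the genes past the threshold with all libraries and a few defining genes. Mkl1 and Mkl2 are older symbols of Mrtfa and Mrtfb.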

Additional observations from a re-analysis of the deposited data

Results flagged for a closer look

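In 8 of 88 sets of 6 libraries (38 members and 6 ratios, each in 2 groups), 1 library lay far from the others of its group by Dixon's test (its gap to the nearest library over the range of the group), where chance gives about 4.4 of 88. In all 8 the library was EPR cKO 1. Its level was 3202 CPM for Myh11 (other EPR cKO libraries 396.5 to 844.7), 1217 CPM for Mylk (228.8 to 416), 1287 CPM for Tpm1 (397.6 to 569.9) and 681 CPM for Myl6 (466.6 to 521.4). For lower genes it was 85.2 CPM for Kcnma1 (19.5 to 32.5), 45.8 CPM for Ryr2 (6.86 to 12.3), 10.1 CPM for Pcp4 (1.81 to 3.14) and 36 CPM for Myocd (3.67 to 8.01). The genes are measured in the same libraries, so that these values are not independent of each other.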

How the results depend on the processing

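The number of members called depended on EPR cKO 1. It was 0 with all 12 libraries under DESeq2 size factors, total counts, no low-count filter, filterByExpr, the DESeq2 Wald test, limma-voom and the replicate block, and 31 lower under limma-voom with quality weights, which lower the weight of libraries that deviate. Leaving out 1 library at a time gave 0 to 34 lower, with 34 only without EPR cKO 1. Over all genes these fits gave 145 to 2273 lower and 28 to 1178 higher, and over the other lists 1 to 66 lower and 1 to 6 higher. Replicate numbers did not pair the libraries (correlations of same-numbered deviations −0.242 to 0.34, own number best in 2 of 6). The replicate block gave a median of −0.81 over members, 0 calls, 67 genes higher over all genes, and Myocd at −0.39.

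Counts over all genes moved to 39 higher with total counts, 54 higher without the filter, 473 lower and 440 higher with DESeq2 (3 and 2 in the other lists), 1891 and 1372 with quality weights (52 and 7), and 381 lower with the smooth muscle covariate (4 lower in the lists, 1 member higher). Without EPR cKO 1, members lower were 35 with limma-voom, 35 with DESeq2 and 34 with total counts. All genes were then 2331 lower and 1253 higher (lists 73 and 6), 2567 and 1796 (74 and 10), and 2037 and 890 (62 and 5), and with the covariate 84 and 19 (2 and 0). The ratios of Tpm2 to Tpm1 and of Cnn1 to Myl6 then passed at −0.62 and −1.51, against −0.35 and −0.92 at the other end of the fits that left out 1 library.

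Signs turned for some members, none of them past the threshold with both signs. Over the fits that left out 1 library, Myl6 ran from −0.033 to 0.12, Vcl from −0.14 to 0.14 and Myocd from −0.80 to 0.33. Myocd was −0.42 with limma-voom and −0.63 with quality weights, where Myl6 was −0.0085 and Vcl −0.066. Without EPR cKO 1, Myocd, Myl6 and Vcl were −0.80, −0.033 and −0.14 (edgeR), −0.83, −0.026 and −0.15 (limma-voom), −0.79, −0.022 and −0.13 (DESeq2) and −0.78, −0.029 and −0.13 (total counts). With the covariate Tpm1 was 0.019, Smtn 0.032, Flnc 0.21, Ppp1r12b 0.027, Mrvi1 0.040, Cacna1c 0.11, Ryr2 0.056 and Atp2b4 0.0045, and without EPR cKO 1 Flnc was 0.30 and Ppp1r14a 0.15. Flnc was 0.0043 without EPR fl/fl 5, and 0.052, 0.081 and 0.053 without EPR cKO 4, 5 and 6. The causes were not tested. Kit was lower and Acta1 higher in every fit that left out 1 library (adjusted p at most 0.0242 and 0.0464), apart from Acta1 with the covariate and without EPR cKO 1 (adjusted p = 0.119). Actc1 was too low to test.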

Other observations

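Adipoq and Fabp4, the adipokine adiponectin and a fatty acid carrier of adipocytes, were at 58.1 to 181.2 and 111.8 to 546.2 CPM in EPR fl/fl, at 99.3 and 282.6 CPM in EPR cKO 1, and at 4.12 to 31.4 and 7.89 to 92.5 CPM in EPR cKO 2 to 6. In both genes EPR cKO 1 lay within the control range. With all 12 libraries neither passed (adjusted p = 0.137 and 0.256), and without EPR cKO 1 their log2 fold changes were −2.44 and −2.38 (adjusted p = 0.00486 and 0.0143). Ckm, the muscle creatine kinase, was at 7.83 to 16.2 CPM in EPR fl/fl, 30.7 CPM in EPR cKO 1 and 3.04 to 7.84 CPM in EPR cKO 2 to 6, with an adjusted p of 0.694 with all libraries and 0.00845 without EPR cKO 1. In the smooth muscle covariate fit with all 12 libraries, Pln, which restrains the calcium pump of the store, was at −0.66 on the log2 scale (SE 0.13, adjusted p = 0.0143), Agtr1a, an angiotensin receptor, −0.77 (SE 0.17, adjusted p = 0.0247) and Ano1, a chloride channel of interstitial cells, −0.43 (SE 0.10, adjusted p = 0.0323). The same model without EPR cKO 1 gave −0.59, −0.59 and −0.38 for Pln, Agtr1a and Ano1, and none passed (adjusted p = 0.332, 0.44 and 0.39). The genes of this paragraph were chosen after their values were seen.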
